A study of Bos taurus with 6 samples.

Results

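The genes described here are those of the oxygen sensing machinery that acts on hypoxia-inducible factor (HIF). They are the alpha subunits HIF1A, EPAS1 (HIF-2 alpha) and HIF3A, the beta subunits ARNT and ARNT2, the prolyl hydroxylases EGLN1 (PHD2), EGLN2 (PHD1) and EGLN3 (PHD3), the asparaginyl hydroxylase HIF1AN (FIH) and the ubiquitin ligase receptor VHL. They were chosen by name, matched by Entrez identifier in the table of raw counts and by symbol in the table of deposited TPM values. All 10 were found among the 19163 genes of the count table, and all 10 were among the 13001 genes with enough counts to be tested. The RNA-seq libraries came from F7, a single line of bovine embryonic stem cells (bESCs) derived from in vitro fertilized Holstein Friesian embryos and grown for 15 passages on feeder layers of mouse embryonic fibroblasts (MEFs). In MC-F7 the feeders had been treated with mitomycin C, which stops division but leaves the fibroblasts alive, and in MT-F7 they had been fixed in methanol, which kills them. Each group had 3 libraries. Both groups were kept in the same customized mTeSR1 medium with fibroblast growth factor and the WNT inhibitor IWR1 (CTFR), which was changed daily in MC-F7 and on alternate days in MT-F7, so the feeder treatment and the interval of medium change cannot be told apart. The oxygen level of the cultures is not given in the sources used here.

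HIF is a transcription factor made of an alpha and a beta subunit. When oxygen is plentiful, the prolyl hydroxylases use it to hydroxylate the alpha subunit, VHL binds the hydroxylated protein, and the ubiquitin ligase built around VHL sends it to the proteasome. HIF1AN adds a further hydroxyl group that keeps the alpha subunit from binding its coactivators, and when oxygen is scarce these enzymes slow down, the alpha subunit accumulates and genes of glycolysis, glucose uptake and vessel growth are switched on. Most of this control acts on protein, whereas the values below are RNA. EGLN1 and EGLN3 are themselves known as HIF target genes.

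The total counts of the libraries lay between 21958386 and 24933430, and the smallest amount taken as detected, 3 counts, was 0.116 to 0.140 counts per 1000000 counts (CPM), a limit that covers counting error only. Levels are given as CPM after TMM normalization, and a negative log2 fold change means a lower level in MT-F7. Whether the libraries stand for separate cultures is not said in the labels, and if they do not, p values measure only the spread between these libraries, which may be technical. The floating cells were collected after a short plating on gelatin, and markers of the cell types that could be present were summed. The 8 pluripotency markers counted added up to 1383 to 2173 CPM in MC-F7 and 732 to 814 CPM in MT-F7, with POU5F1 and NANOG present in all 6 libraries and 6 of the 8 lower in MT-F7 by the test described below. The 15 fibroblast markers added up to 420 to 550 CPM in MC-F7 and 813 to 948 CPM in MT-F7. Most of these sums came from 3 genes. COL1A1 had 170 to 231 CPM in MC-F7 and 256 to 286 CPM in MT-F7, FBLN1 84.5 to 125 and 284 to 351 CPM, and MMP2 109 to 138 and 165 to 203 CPM. By the test described below 5 of their 14 tested genes were higher in MT-F7 (COL3A1 by 1.65, FBLN1 by 1.60, POSTN by 1.24, PDGFRB by 0.93 and MMP2 by 0.55 on the log2 scale) and 1 was lower (TWIST2, log2 fold change -2.15), and FAP was at 0 in all 3 MT-F7 libraries. The 6 trophectoderm markers added up to 52.0 to 78.3 CPM in MC-F7 and to 7.43 to 8.25 CPM in MT-F7, of which KRT7 made up 49.8 to 75.6 CPM and 5.83 to 7.05 CPM, and CDX2 was at 0 throughout. The 8 endothelial markers had overlapping sums of 26.7 to 28.9 CPM and 28.7 to 30.1 CPM, within which TEK and KDR were higher in MT-F7 (log2 fold changes 2.32 and 1.06) and FLT1 and VWF were lower (-1.78 and -1.30). The pluripotency, fibroblast and trophectoderm sums moved with the feeder, and the part of these cell types in the results below was not tested. The paper reports a lower rate of alignment to the bovine genome for MC-F7 than for MT-F7. It proposes that fixed feeders leave less contamination by feeder cells. From higher RNA of several matrix and growth factor genes in MT-F7, it also proposes that some MT-F7 cells became feeder-like. How many mouse reads were counted for these markers and for the genes below, mainly in MC-F7, was not tested. In bulk RNA, fewer cells of a type and less RNA per cell cannot be told apart.

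Compared with MC-F7, the cells on fixed feeders had lower EPAS1, EGLN1 and HIF3A and higher ARNT2 (edgeR's quasi-likelihood test, adjusted p under 0.05 over all 13001 genes). The lower genes are 2 of the 3 alpha subunits and 1 of the 3 prolyl hydroxylases, and the higher gene is 1 of the 2 beta subunits. HIF1A, ARNT, EGLN2, EGLN3, HIF1AN and VHL did not pass the test. The count of 4 in 10 stands beside 23.2% of all tested genes that passed, with 11.9% higher and 11.3% lower. It includes EPAS1, which passed the filter for low counts only through MC-F7, the group in which it is high. It also includes HIF3A, whose call was kept in 1 of 6 fits with a library left out. Where at least 10 counts in every library were required, EPAS1 could not be tested and 3 genes were called. The median log2 fold change of the 10 genes was -0.11, against -0.0026 over all tested genes. By the fold change limit of 1.5 on the log2 scale with an unadjusted p under 0.05, which 6.58% of all tested genes met, EPAS1 alone of the 10 was counted, and EGLN1 missed the limit narrowly at -1.497.

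**Figure D1:**
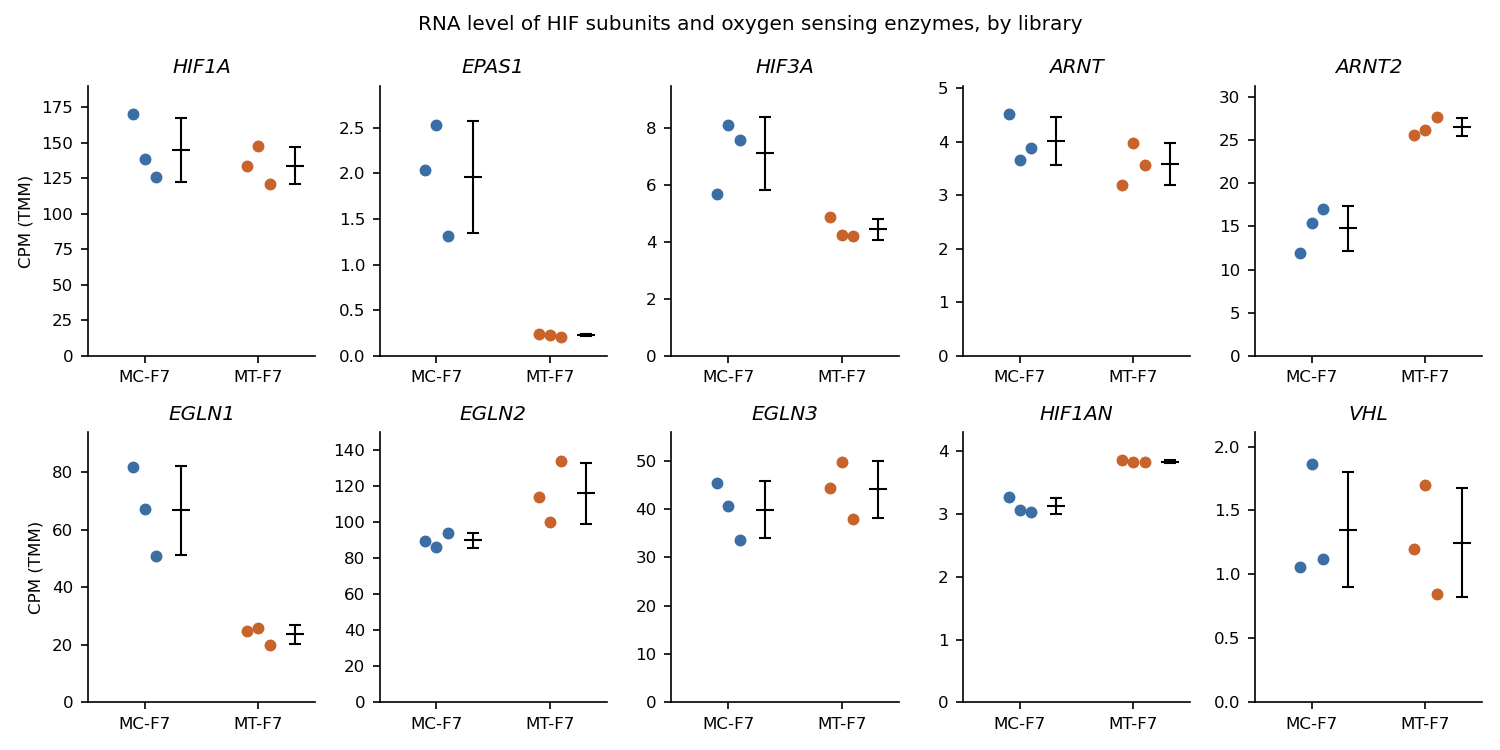
Each panel plots CPM (TMM) of 1 gene in the 3 MC-F7 libraries (blue) and the 3 MT-F7 libraries (orange), with the group mean and SD in black and axes that start at 0. EPAS1, EGLN1 and HIF3A lie lower in all 3 MT-F7 libraries and ARNT2 lies higher, while the points of HIF1A, ARNT, EGLN3 and VHL overlap.

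HIF1A encodes the alpha subunit that is expressed in most cell types and is best known for driving glycolytic genes. Its level was 170.0, 139 and 126 CPM in the MC-F7 libraries and 133.5, 147 and 121 CPM in the MT-F7 libraries. The groups overlapped, with the highest value in MC-F7 replicate 1 and the lowest in MT-F7 replicate 3. The means were 145 ± 22.7 and 134 ± 13.3 CPM (SD, n = 3), and the log2 fold change was -0.11 (standard error 0.160, 95% interval -0.46 to 0.23, adjusted p = 0.652). A decrease beyond 0.46 on the log2 scale is therefore outside the interval, and without MC-F7 replicate 1 the log2 fold change was 0.017. In the RefSeq table of assembly ARS-UCD2.0 a long noncoding RNA gene, LOC107132877, overlaps HIF1A, and whether the counting used strand is not given in the sources used here.

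EPAS1 encodes HIF-2 alpha, the alpha subunit best known from endothelial cells, kidney and the response to long-lasting hypoxia. Its counts were 46, 61 and 28 in the MC-F7 libraries and 6, 6 and 5 in the MT-F7 libraries. This made 2.03, 2.53 and 1.31 CPM against 0.239, 0.232 and 0.212 CPM. Every MT-F7 library lay below every MC-F7 library, and the MC-F7 libraries differed among themselves more than the MT-F7 libraries did. EPAS1 fell 8.44-fold, or by 3.08 on the log2 scale (standard error 0.459, 95% interval -4.07 to -2.08, adjusted p = 4.09e-04), and had rank 517 by p among all tested genes. The levels were low on both feeders, and the wide interval goes with the 5 or 6 counts per MT-F7 library. EPAS1 passed the filter for low counts only through its MC-F7 libraries, the group in which it is high. Of the 8 endothelial markers, PECAM1 and CDH5 had at most 6 counts in any library, whereas TEK and KDR were higher and FLT1 and VWF lower in MT-F7.

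HIF3A encodes an alpha subunit some of whose protein forms oppose the other alpha subunits. It was at 5.66, 8.08 and 7.58 CPM in MC-F7 and at 4.86, 4.25 and 4.20 CPM in MT-F7. The groups did not overlap, though the lowest MC-F7 library (replicate 1) came close to the highest MT-F7 library (replicate 1). HIF3A fell by 0.68 on the log2 scale (standard error 0.221, 95% interval -1.16 to -0.20, adjusted p = 0.0418). This call was close to the threshold. It was kept when MC-F7 replicate 1 was left out (adjusted p = 0.0218) and lost when any other library was left out, with adjusted p values of 0.179 without MC-F7 replicate 2, 0.084 without MC-F7 replicate 3, 0.0796 without MT-F7 replicate 1, 0.119 without MT-F7 replicate 2 and 0.0778 without MT-F7 replicate 3.

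ARNT, also called HIF-1 beta, is the general partner of the alpha subunits and of the aryl hydrocarbon receptor. It had 4.51, 3.65 and 3.88 CPM in MC-F7 and 3.19, 3.98 and 3.57 CPM in MT-F7. These values overlapped, and the log2 fold change was -0.17 (standard error 0.239, 95% interval -0.68 to 0.35, adjusted p = 0.665). ARNT2 is the related partner that is most abundant in the nervous system. Its level was 11.9, 15.4 and 17.0 CPM in MC-F7 and 25.6, 26.2 and 27.6 CPM in MT-F7. All MT-F7 libraries were above all MC-F7 libraries, and the 3 MT-F7 values were close together. ARNT2 rose 1.79-fold, a log2 fold change of 0.84 (standard error 0.173, 95% interval 0.47 to 1.22, adjusted p = 0.00381). In the RefSeq table CTXND1 and 3 tRNA genes overlap ARNT2, and none of them was analysed here.

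EGLN1 (PHD2) is regarded as the main oxygen sensor that sets HIF1A protein in normal oxygen. It was at 81.8, 67.1 and 50.9 CPM in the MC-F7 libraries and at 24.9, 26.0 and 19.8 CPM in the MT-F7 libraries. The lowest MC-F7 value was well above the highest MT-F7 value, and replicate 3 was the lowest library of each group. EGLN1 fell 2.82-fold (log2 fold change -1.50, standard error 0.194, 95% interval -1.92 to -1.08, adjusted p = 1.44e-04), and had rank 332 by p.

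EGLN2 (PHD1) is the prolyl hydroxylase that is not known to be induced by HIF. It had 89.8, 86.1 and 94.1 CPM in MC-F7 and 114, 100.5 and 134 CPM in MT-F7. No MT-F7 library was as low as an MC-F7 library, but the spread within MT-F7 was wide, and the gene did not pass the test at a log2 fold change of 0.37 (standard error 0.152, 95% interval 0.04 to 0.70, adjusted p = 0.101 by edgeR, 0.0315 before adjustment). EGLN3 (PHD3), which HIF itself strongly induces in many cells, had 45.4, 40.5 and 33.7 CPM in MC-F7 and 44.3, 49.8 and 38.0 CPM in MT-F7. The groups overlapped and replicate 3 was the lowest in each. Its log2 fold change was 0.14 (standard error 0.168, 95% interval -0.22 to 0.51, adjusted p = 0.582). The interval of EGLN3 and that of EGLN1 did not overlap.

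HIF1AN (FIH), the enzyme that blocks coactivator binding, was at 3.27, 3.07 and 3.04 CPM in MC-F7 and at 3.86, 3.82 and 3.82 CPM in MT-F7. The groups did not overlap, and the log2 fold change of 0.29 did not pass the test, which shares its estimate of spread with genes of similar level (standard error 0.236, 95% interval -0.22 to 0.81, adjusted p = 0.405). With 65 to 99 counts per library, the MT-F7 values lay closer together than counting error would lead to expect. Their closeness is therefore no measure of the spread of this gene. VHL, which recognizes hydroxylated alpha subunits, had 1.06, 1.87 and 1.12 CPM in MC-F7 and 1.20, 1.70 and 0.849 CPM in MT-F7. The highest library was replicate 2 in each group and the ranges overlapped. With 20 to 45 counts per library, the interval of the log2 fold change was wide (-0.11, 95% interval -0.99 to 0.76, adjusted p = 0.871). The 3 values of one group all lay above those of the other in 6 of the 10 genes, 3 higher and 3 lower in MT-F7, beside 40.0% of all tested genes, 19.9% higher and 20.1% lower.

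**Figure D2:**
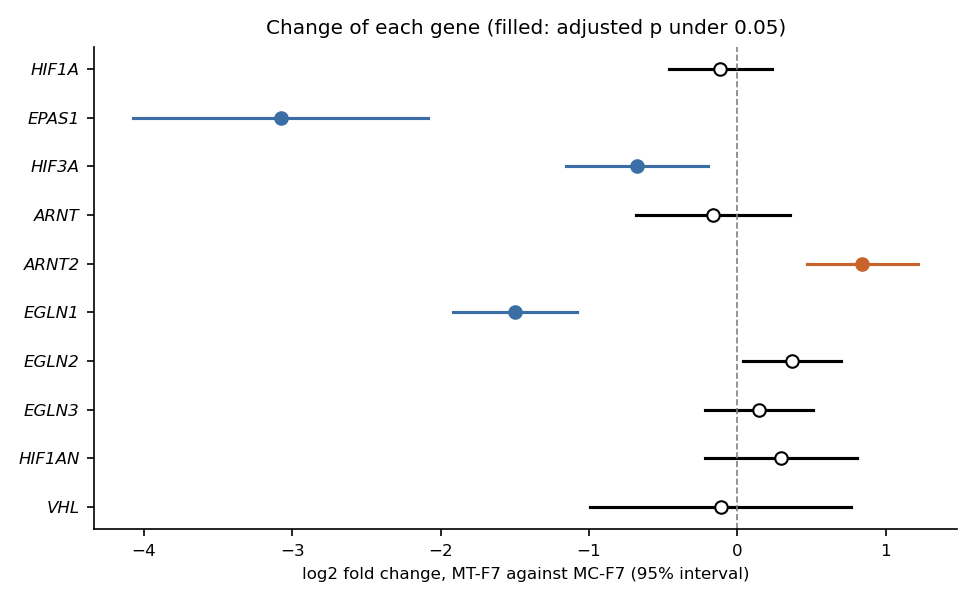
The log2 fold change of MT-F7 against MC-F7 is plotted for each gene, with its 95% interval as a line and filled points for an adjusted p under 0.05. The intervals of EPAS1, EGLN1, HIF3A and ARNT2 leave out 0, and so does that of EGLN2 (0.04 to 0.70), whose adjusted p was 0.101.

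To compare the genes with each other, the deposited TPM values were used, which for each of the 10 genes equalled the count times 1 constant in all 6 libraries. They were taken as values per gene length, though the constants were not compared with annotated lengths, and library size is still in them. In MC-F7 the order of the mean TPM was EGLN2 at 9.24 ± 0.151, HIF1A at 7.43 ± 1.30, EGLN3 at 4.07 ± 0.737 and EGLN1 at 3.57 ± 0.916 (SD, n = 3). The ranges of EGLN3 and EGLN1 overlapped, though EGLN3 was higher in each library, and those of the genes above them did not. The other 6 genes were all under 0.6 TPM in every MC-F7 library, and within that group the ranges of neighbours overlapped from ARNT2 (0.497 ± 0.0849 TPM) through HIF1AN, VHL and HIF3A to ARNT (0.284 ± 0.0307 TPM), so their order there is not set. EPAS1 was lowest at 0.0723 ± 0.0266 TPM.

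In MT-F7 the mean TPM was 13.0 ± 1.25 for EGLN2, 7.53 ± 1.09 for HIF1A, 4.93 ± 0.885 for EGLN3 and 1.38 ± 0.254 for EGLN1. ARNT2 (0.974 ± 0.0286 TPM) then stood above HIF1AN (0.626 ± 0.0310 TPM), and neither range overlapped its neighbours. VHL (0.344 ± 0.132 TPM) and ARNT (0.277 ± 0.0383 TPM) overlapped each other, HIF3A was at 0.201 ± 0.0209 TPM, and EPAS1 was at 0.00911 ± 9.28e-04 TPM. EGLN1 thus went from overlapping EGLN3 in MC-F7 to lying below it in MT-F7. Over all 6 libraries, EGLN2 was at percentile 93.5 and HIF1A at percentile 90.5 of the 21357 genes of the TPM table, whereas EPAS1 was at percentile 36.5.

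**Figure D3:**
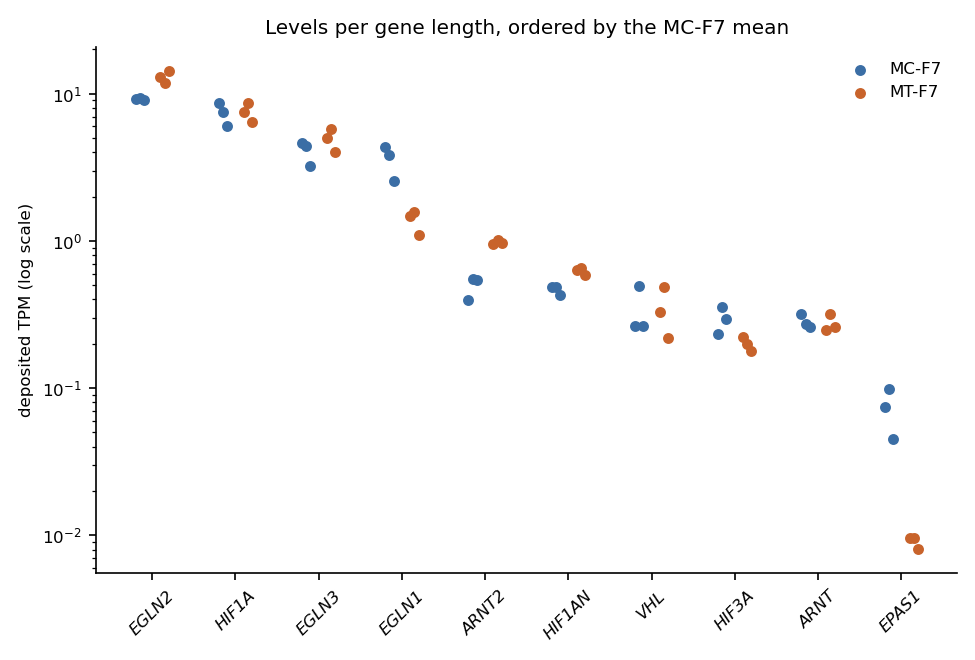
The deposited TPM of each gene in each library is plotted on a log axis, in the order of the MC-F7 means, with MC-F7 in blue and MT-F7 in orange. EGLN2, HIF1A, EGLN3 and EGLN1 form an upper group in MC-F7, and the distance of EGLN1 to the first 3 is larger in MT-F7.

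The makeup of each class was then compared as a share of its summed TPM, which does not depend on library size. With 3 libraries in each group, the smallest two-sided p of an exact permutation test is 0.1. Among the alpha subunits, HIF1A made up 96.6, 94.3 and 94.7% in MC-F7 against 97.0, 97.6 and 97.2% in MT-F7. HIF1A was thus the large majority in every library, and its share was somewhat higher in MT-F7, by 2.05 percentage points (95.2% ± 1.20 against 97.3% ± 0.312, exact p = 0.1). The share of EPAS1 was 0.917% ± 0.274 in MC-F7 and 0.118% ± 0.00775 in MT-F7 (exact p = 0.1), and that of HIF3A was 3.87% ± 1.11 and 2.61% ± 0.304 with overlapping groups (exact p = 0.3). The log2 ratio of HIF1A to EPAS1 was 6.87, 6.27 and 7.08 in MC-F7 but 9.61, 9.80 and 9.64 in MT-F7, a difference of 2.95 with no overlap (exact p = 0.1). Since HIF1A was not called, this ratio mostly repeats the lower EPAS1 and is no separate result. In MT-F7 it rests on 5 or 6 counts of EPAS1 per library.

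Of the beta subunits, ARNT2 made up 55.6, 66.8 and 67.6% in MC-F7 against 79.2, 75.8 and 78.7% in MT-F7. ARNT2 was the larger part in all libraries, and its share was higher on the fixed feeders by 14.6 percentage points (63.3% ± 6.68 against 77.9% ± 1.83, exact p = 0.1). Among the prolyl hydroxylases, EGLN1 made up 24.0, 21.6 and 17.2% in MC-F7 against 7.58, 8.26 and 5.66% in MT-F7. The groups did not overlap and differed by -13.8 percentage points (20.9% ± 3.44 against 7.17% ± 1.35, exact p = 0.1). EGLN2 took up most of that difference, with 55.1% ± 5.42 in MC-F7 and 67.3% ± 6.08 in MT-F7 (exact p = 0.1), while EGLN3 held 24.0% ± 2.01 and 25.5% ± 4.76 with overlapping groups (exact p = 0.7).

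Further ratios were chosen after the values had been seen. The log2 ratio of EGLN1 to EGLN3 was -0.21 ± 0.126 in MC-F7 against -1.83 ± 0.0637 in MT-F7 (SD, n = 3, exact p = 0.1). The summed TPM of the alpha subunits overlapped between the groups (7.80 ± 1.29 and 7.74 ± 1.11), and that of the beta subunits was higher in all 3 MT-F7 libraries (0.780 ± 0.0567 and 1.25 ± 0.0669). The log2 ratio of alpha to beta subunits was accordingly lower in MT-F7 (2.62 ± 0.166 against 3.31 ± 0.321, exact p = 0.1). The summed prolyl hydroxylases were at 16.9 ± 1.74 TPM in MC-F7 and 19.3 ± 0.155 TPM in MT-F7, and their log2 ratio to the alpha subunits overlapped between the groups (1.12 ± 0.101 and 1.33 ± 0.218, exact p = 0.3). The sum of the 3 enzymes was thus not lower on this scale, in which library size remains, although EGLN1 fell.

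**Figure D4:**
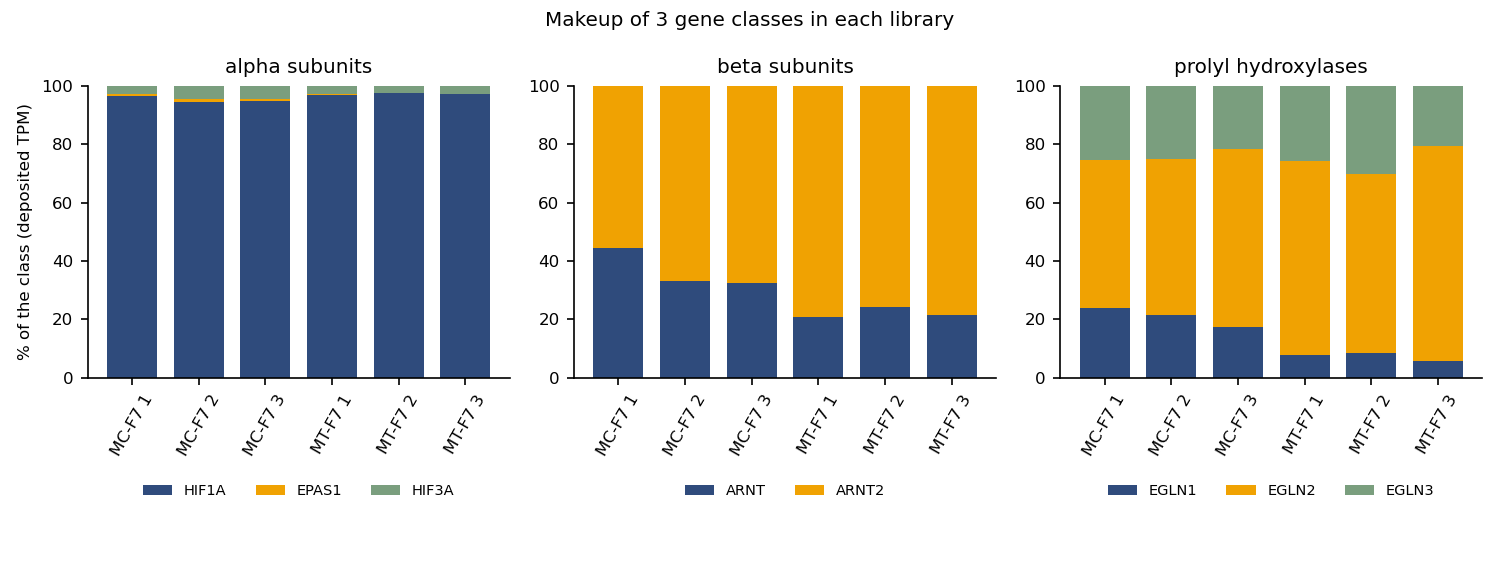
Stacked bars give the share (%) of each gene in the summed deposited TPM of its class, for the alpha subunits, the beta subunits and the prolyl hydroxylases, with 1 bar per library. HIF1A takes 94.3 to 97.6% of the alpha subunits in all 6 libraries, ARNT2 grows at the expense of ARNT in MT-F7, and EGLN1 shrinks from 17.2 to 24.0% to 5.66 to 8.26%.

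Of 23 tested genes for HIF stability and coactivators, 3 rose and 0 fell, beside 11.9% and 11.3% of all tested genes, with a median log2 fold change of 0.09. DESeq2 called 6 of these genes, and 3390 of the 13001 over all. NCOA1, a steroid receptor coactivator that also works with HIF, rose from 20.0 ± 0.735 to 34.2 ± 0.797 CPM (log2 fold change 0.77, adjusted p = 0.00231). CREBBP, the histone acetyltransferase CBP recruited by the alpha subunits, rose from 69.3, 69.1 and 89.9 CPM to 107, 103 and 121 CPM (0.54 on the log2 scale, adjusted p = 0.0266). CITED2, which competes with the alpha subunits for CBP and p300 and is itself a HIF target, rose from 29.2 ± 5.10 to 43.7 ± 7.58 CPM (0.58 on the log2 scale, adjusted p = 0.0364). The calls of CREBBP and CITED2 were each kept in 2 of 6 fits with a library left out, with adjusted p values up to 0.144 and 0.143, and 1 gene of the list was called without MC-F7 replicate 2 and 1 without MT-F7 replicate 1. EP300, the p300 partner of CBP, was read only from the TPM table, at 1.36 ± 0.502 TPM in MC-F7 and 1.36 ± 0.195 TPM in MT-F7.

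The ubiquitin ligase of VHL is built from ELOB, ELOC, CUL2 and RBX1, and its cullin is modified by NEDD8, which UBE2M attaches. None of these genes was called by edgeR (0 of 6, also 0 at an unadjusted p under 0.05), and their log2 fold changes ran from -0.28 to 0.34. ELOB and ELOC, the elongins that bind VHL, were at 315 ± 48.0 and 114 ± 24.1 CPM in MC-F7 and at 343 ± 34.2 and 93.7 ± 9.23 CPM in MT-F7. The scaffold CUL2 had 17.4 ± 1.34 and 14.5 ± 0.366 CPM, with groups that did not overlap (log2 fold change -0.27, 95% interval -0.61 to 0.08, adjusted p = 0.257).

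Other factors of the bHLH-PAS family, to which the HIF subunits belong, ranged widely in level. Of 11 genes 6 had enough counts to be tested, and 0 were called by edgeR, by DESeq2 or by limma, with 1 gene (BMAL1, a clock factor named after its value was seen) at an unadjusted p under 0.05 in edgeR. NPAS2, another clock factor and also named after its values were seen, had the highest deposited TPM of the list (74.9 ± 15.6 in MC-F7, 80.6 ± 14.9 in MT-F7). It was at 1805 ± 347 CPM in MC-F7 against 1772 ± 251 CPM in MT-F7 (log2 fold change -0.03, 95% interval -0.44 to 0.39, adjusted p = 0.936). Overlapping or nearby genes were not looked up for NPAS2, so whether all of these reads came from its own transcripts was not tested. AHR, the aryl hydrocarbon receptor and an alternative partner of ARNT, had 0.396 ± 0.0820 CPM in MC-F7 and 0.220 ± 0.173 CPM in MT-F7 and was too low to be tested.

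Of 9 tested oxygen-dependent dioxygenases outside the EGLN family, 3 fell and 0 rose, beside the 11.3% of all tested genes that fell and the 11.9% that rose, with a median log2 fold change of -0.36. RIOX1, a ribosomal oxygenase, fell from 43.8 ± 3.98 to 18.6 ± 2.66 CPM (log2 fold change -1.24, adjusted p = 1.89e-04). JMJD6, a lysyl hydroxylase, fell by 0.52 on the log2 scale (adjusted p = 0.018), and KDM6A, an oxygen-sensitive histone demethylase, fell by 0.84 (adjusted p = 0.0228) although its groups overlapped. RIOX1 was the 1 gene of this list that kept its call with each library left out, and it was alone without MC-F7 replicate 2, without MT-F7 replicate 1 and without MT-F7 replicate 2. P4HTM, a transmembrane prolyl hydroxylase that has been linked to HIF, was at 16.1 ± 3.03 CPM in MC-F7 and 18.5 ± 4.02 CPM in MT-F7 (log2 fold change 0.20, adjusted p = 0.511). ADO was not analysed here.

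Most of the known HIF target genes examined were lower on the fixed feeders. The lists of targets were chosen with earlier results of these data known. From the same libraries the paper reports lower genes of glycolysis and of the HIF-1 pathway, so the counts below are not independent of that report. Of 19 tested targets of glucose uptake and glycolysis, 16 fell in MT-F7 and 0 rose, beside the 11.3% of all tested genes that fell, and the median log2 fold change was -1.24. LDHA, which turns pyruvate into lactate, was at 606, 637 and 359 CPM in MC-F7 and at 34.8, 38.4 and 23.5 CPM in MT-F7, a log2 fold change of -4.05 (adjusted p = 7.65e-07). SLC2A3, a glucose transporter, fell by 3.27 on the log2 scale (adjusted p = 2.25e-06) and SLC16A3, a lactate exporter, by 3.24 (adjusted p = 7.64e-06). SLC2A1, the other main glucose transporter, fell by 0.88 (adjusted p = 0.00382), and PDK1, which holds pyruvate back from the mitochondria, fell by 1.36 (adjusted p = 0.0012). PFKFB3, PFKFB4 and ENO2 did not pass the test. TPI1 had 3 to 9 counts per library, too few to be tested, and whether reads of this gene were lost in mapping was not tested.

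Of 30 tested HIF targets with other functions, 20 passed the test, 19 of them lower in MT-F7. Over all tested genes 23.2% passed, 11.3% lower and 11.9% higher. The median log2 fold change of the list was -0.81, and 15 to 21 of its genes were called with a library left out. ADM, the vasodilator peptide adrenomedullin, was at 16.5, 20.0 and 17.2 CPM in MC-F7 and at 1.47, 1.08 and 1.06 CPM in MT-F7, a log2 fold change of -3.89 (adjusted p = 6.20e-07). STC2, a secreted glycoprotein, fell by 3.89 on the log2 scale (adjusted p = 7.65e-07), and FAM162A, a mitochondrial protein, fell by 2.39 (adjusted p = 1.92e-06). BNIP3, a mitophagy receptor, fell by 4.20 (95% interval -5.16 to -3.23, adjusted p = 3.07e-05). Its counts were 101, 107 and 52 in MC-F7 and only 7, 3 and 5 in MT-F7, so it passed the filter for low counts only through MC-F7. CA9, a carbonic anhydrase often used as a hypoxia marker, fell by 2.03 (adjusted p = 6.58e-06), and ANKRD37 by 1.72 (adjusted p = 0.00243). VEGFA, the vessel growth factor, fell by 0.90 (adjusted p = 0.00424). Whether the targets moved apart from other genes of glycolysis was not tested.

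**Figure D5:**
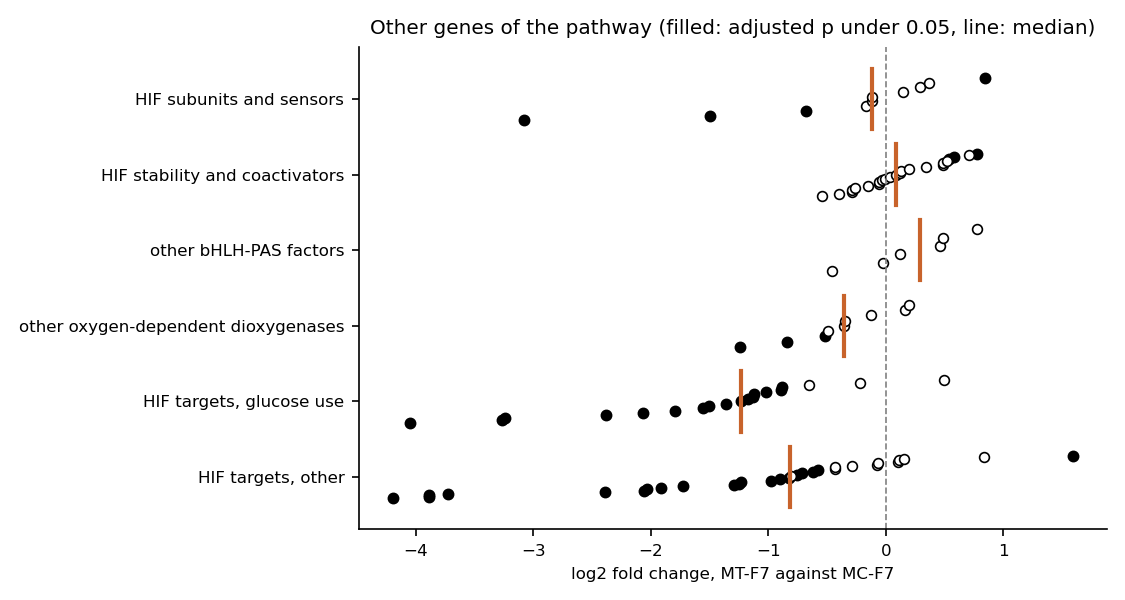
Each point is the log2 fold change of 1 tested gene in MT-F7 against MC-F7, filled where the adjusted p was under 0.05, with the median of each list as an orange line and vertical offsets only to separate points. The 10 genes run from -3.08 (EPAS1) to 0.84 (ARNT2) with a median of -0.11, the genes for stability and coactivators have a median of 0.09, and the 2 lists of targets have medians of -1.24 and -0.81.

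Genes with the pattern most like that of HIF1A and EPAS1 were found by the root mean square difference of gene-centred log2 CPM over the 6 libraries, as a description. For HIF1A they were MGST3 (a microsomal glutathione transferase, difference 0.0304), RPS7 (a ribosomal protein, 0.0346) and SKA1 (a kinetochore protein, 0.0360), where the median over all tested genes was 0.347. MGST3 was at 65.4, 51.4 and 45.5 CPM in MC-F7 and at 49.7, 55.0 and 46.2 CPM in MT-F7. For EPAS1 they were LOC782892 (0.183), CRIPTO (a co-receptor of Nodal, 0.188) and PRSS12 (a serine protease, 0.189), with a median of 1.38 over all tested genes. CRIPTO is one of the pluripotency markers and was at 14.5, 14.1 and 9.07 CPM in MC-F7 and at 1.83, 1.82 and 2.34 CPM in MT-F7. Reads of RPS7 may be shared with processed copies of the gene.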

How the data were processed

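RNA-seq was done on 6 libraries, MC-F7 and MT-F7 with 3 each, grouped by their titles. The authors aligned the reads to a Bos taurus reference by HISAT2 2.0.5 and counted them with featureCounts 1.5.0-p3, per the submitters' processing notes, and deposited raw counts per gene and a table of TPM values. The build and the strand setting are not given in the sources used here. No column of per-sample values was left unmapped. Low genes were left out by filterByExpr (counts of at least 10, total of at least 15) and compared with edgeR 4.0.16 in R 4.3.3 (TMM, quasi-likelihood test, two-sided, Benjamini-Hochberg adjustment over all 13001 genes, threshold 0.05). Shares and ratios of the deposited TPM were compared by exact permutation tests over libraries. Alternatives were RLE factors, library size only, DESeq2 1.42.0, other filters, the replicate number as a block, limma 3.58.1 on log2(TPM + 1) and log2(TPM + 0.1), each library left out, and, chosen after seeing the data, both replicates 3 left out. Tables were made with Python 3.11.15. The steps were tested on simulated data.

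The genes and lists were chosen with earlier results of these data known. The genes named with values are all 10 members, from each other pathway list (not the cell type markers) the 3 called genes with the smallest p, a few fixed by name, and for HIF1A and EPAS1 the 3 genes of most similar pattern. No 2 libraries agreed within sampling noise. Gene symbols came from the RefSeq table of ARS-UCD2.0 by Entrez identifier, which matched 19074 of 19163 genes, and its coordinates served only to find overlapping genes. A gene of the list of other HIF targets is counted but not reported here by name.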

Additional observations from a re-analysis of the deposited data

How the results depend on the processing

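EPAS1, EGLN1 and ARNT2 kept their calls and directions in every alternative in which they could be tested (15, 17 and 16), and HIF3A kept its call in 7 of 16. The sizes did move on the log2(TPM + pseudocount) scale, which understates low genes: EPAS1 to -0.087 and -0.65, ARNT2 to 0.40 and EGLN1 to -0.92 at the smallest. HIF3A was lost with library size only (adjusted p = 0.0529), with limma (0.14 and 0.195) and without both replicates 3 (0.0979). EPAS1 could not be tested where at least 10 counts in every library or a mean TPM of at least 1 were required. The log2 fold change of HIF1A turned to 0.0196 with limma on log2(TPM + 1), to 0.0225 on log2(TPM + 0.1) with or without the minimum mean TPM, and to 0.017 without MC-F7 replicate 1 (range with a library left out -0.21 to 0.017). That of VHL turned to 0.0039 and 0.0092 with limma, to 0.196 without MC-F7 replicate 2 and to 0.0897 without MT-F7 replicate 3 (range -0.40 to 0.196). Neither gene was called in any fit, and the cause was not tested. Limma on TPM keeps library size, and it moved the median of all genes to 0.0113, 0.0524 and 0.102. Its calls were 1547 higher and 820 lower, 1581 and 845, and 930 and 441, against 1553 and 1463.

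The number of the 10 genes called higher became 2 with the replicate block and with limma on log2(TPM + 1) and log2(TPM + 0.1), each time by adding EGLN2. With a minimum mean TPM of 1, which leaves out 6 of the 10 genes, 2 were called, 1 of them lower. With a library left out, 3 to 4 were called, 1 of them higher and 2 to 3 lower. For HIF stability and coactivators the count of 3 became 6 with DESeq2, 8 with the replicate block, 7 without both replicates 3 and 1 to 3 with a library left out. For the dioxygenases it became 5 with the block, 1 in each of the limma fits and 1 to 3 with a library left out. For the other HIF targets 20 became 13, 13 and 9 with limma and 15 to 21 with a library left out, and for glucose use 16 became 12, 12 and 14 with limma and 16 to 17 with a library left out. Shares and ratios kept their direction from counts in place of TPM and with libraries left out. Same-numbered libraries deviated together with correlations of 0.134, 0.0445 and 0.417. The study states no block, and for that reason the numbers were not taken to pair the samples. Whether the replicates 3 share an effect was not tested. The block raised the calls over all genes from 3016 to 4674, and leaving out both replicates 3 raised them to 4242, while 1914 were left without MC-F7 replicate 2 and limma on log2(TPM + 0.1) called 2426, or 1371 with the minimum mean TPM. With 20 to 45 counts for VHL and 5 or 6 for EPAS1 in MT-F7, small changes of these genes were not detectable at this depth.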

Other observations

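Replicate 3 was the lowest library of both groups for 5 of the 10 genes (HIF1A, EPAS1, EGLN1, EGLN3 and HIF1AN), or 50.0%, and for 25.8% of all tested genes. Counts from the mitochondrial genome took 28.3% of MC-F7 replicate 3 and 27.9% of MT-F7 replicate 3, and between 16.3 and 23.2% of the other 4 libraries. Without both replicates 3, EPAS1, EGLN1 and ARNT2 were still called and HIF3A was not (adjusted p = 0.0979 by edgeR). The relation of the mitochondrial share to these levels was not tested.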
